A study of Mus musculus with 6 samples.

Results

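The developmental pluripotency-associated genes Dppa2, Dppa3, Dppa4 and Dppa5a and the stem cell markers Tcl1 and Utf1 are described here in mouse embryonic stem cells without Dot1l. The 6 genes were taken by name from a table of 19571 genes, and all 6 carry a test result. RNA came from E14 cells, an established mouse embryonic stem cell line, grown on gelatin in serum with LIF. The Dot1l knock-out (KO) group, genotype Dot1L-/-, was made with CRISPR/Cas9 and has 3 samples, and the wild-type (WT) group has 3 samples. All samples carry the age label day 14, whose starting point the labels do not explain, nor do they give the number of knock-out clones or say whether replicates were separate cultures. The p-values therefore measure the spread between these samples, which may be technical.

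Dot1l encodes the methyltransferase of lysine K79 of histone H3 (H3K79), a mark laid down along transcribed genes. Dppa2 and Dppa4 are neighbouring genes for DNA-binding proteins of the SAP domain type, which form a dimer, keep developmental promoters open to later use and are needed in embryonic stem cells to switch on Dux and the transcripts of the 2-cell embryo. Dppa3, also called Stella or PGC7, encodes a maternal factor that guards DNA methylation in the zygote, restrains the methylation cofactor Uhrf1 and marks naive stem cells and primordial germ cells. Dppa5a, or Esg1, encodes a KH-domain RNA-binding protein. Tcl1 encodes a coactivator of the kinase Akt that sustains self-renewal, and Utf1 a chromatin-bound protein that tempers bivalent genes. All 6 were among the candidates from which the classical reprogramming factors were picked.

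Of the 6 genes, Dppa3 fell in Dot1l KO cells and the other 5 did not pass the test. For Dppa3 the RNA level was 77.7% lower, a 4.49-fold difference with a 95% interval of 2.66- to 7.57-fold. Tcl1, Utf1, Dppa5a and Dppa4 had negative log2 fold changes between -0.76 and -0.43, and Dppa2 had a positive value of 0.19. Called means an adjusted p under 0.05 in the authors' DESeq2 Wald test with Benjamini-Hochberg adjustment over all genes. By that rule 0 of the 6 genes were higher and 1 was lower; without adjustment, at p under 0.05, 0 were higher and 2 were lower. Among all 19564 genes with a p, 5.34% were called higher and 1.25% lower, and among the 8660 tested genes as abundant as Dppa3 or more so, 0.982% were higher and 1.99% lower. Without adjustment, 2078 of the 19564 genes were higher and 1085 lower at p under 0.05. Of the 8660 abundant genes, 175 were higher and 773 lower by that looser rule.

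The table gives a mean over all libraries, a fold change and its error for each gene, but nothing for single samples; library depth is therefore unknown, and overlap between samples cannot be shown. The sign of the comparison is not written in the table either. Positive values are taken as higher in Dot1l KO on the ground of publications in which Dot1l holds down the retroviral element MERVL in these cells; with the opposite sign, Dppa3 would be the gene that is higher in Dot1l KO. The level of Dot1l does not settle the sign, since the authors' deposited table has it at -0.16 ± 0.25 (SE), adjusted p = 0.845.

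**Figure D1:**
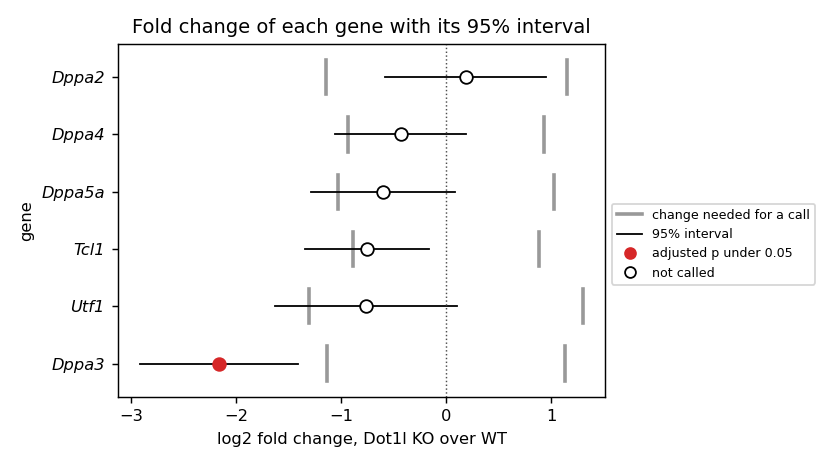
Log2 fold change of each gene, Dot1l KO over WT (horizontal axis), with its 95% Wald interval as a black line; grey ticks mark the change that its standard error would need for a call. Dppa3 at -2.17 lies beyond its tick at 1.13 below 0, and the other 5 genes lie inside theirs.

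The 6 genes differ widely in abundance. Per kilobase of merged exon, the mean over all libraries was 81877 normalized counts for Dppa5a, the sixth highest of all genes (rank 6). Utf1 followed with 14184 normalized counts per kilobase (rank 112), then Dppa4 with 3750 (rank 461), Tcl1 with 2920 (rank 617), Dppa2 with 671 (rank 2780) and Dppa3 with 498 (rank 3629). All 6 thus lay above the median of all genes on this scale. The order runs from Dppa5a to Dppa3, and without single-sample values, neighbours in it, such as Dppa4 and Tcl1, cannot be told apart by their spread.

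Under equal group sizes, the mean and the fold change imply a level for each genotype. These implied levels have no error of their own. For Dppa3 they were 162 normalized counts in Dot1l KO and 726 in WT. The implied levels of Dppa5a were 40314 in Dot1l KO and 61049 in WT, and those of Utf1 12900 in Dot1l KO and 21909 in WT. Tcl1 stood at 4004 in Dot1l KO and 6771 in WT, Dppa4 at 5301 in Dot1l KO and 7164 in WT, and Dppa2 at 1750 in Dot1l KO and 1536 in WT. The order of the 6 genes per kilobase is the same in Dot1l KO and in WT apart from the last pair: in Dot1l KO Dppa3 stood below Dppa2, with 181 against 715 normalized counts per kilobase, and in WT above it, with 814 against 628.

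**Figure D2:**
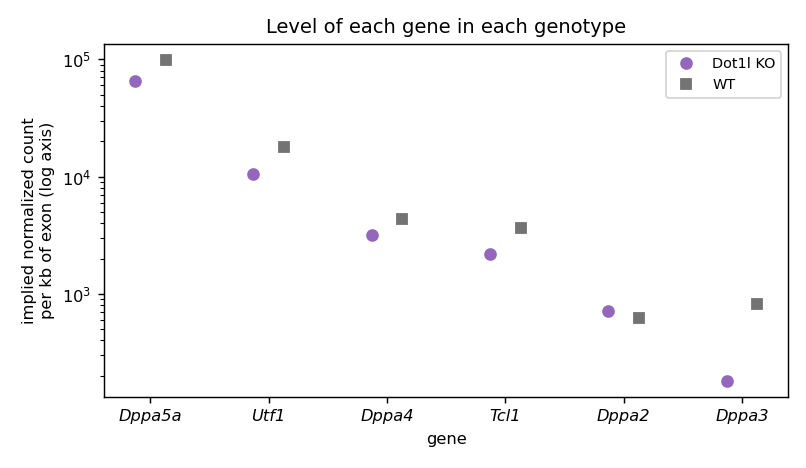
Implied level of each gene in Dot1l KO (purple circles) and WT (grey squares), in normalized counts per kilobase of merged exon on a log axis. Dppa3 shows the widest gap, 181 in Dot1l KO and 814 in WT.

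Dppa3 (chromosome 6, 122626410 to 122630272, forward strand, in the GRCm38 assembly of mm10) fell by 2.17 ± 0.38 (SE, log2 scale) at an adjusted p = 2.21e-06 (DESeq2), as the authors' deposited table gives it, and had a mean of 444 normalized counts. Its 95% interval ran from -2.92 to -1.41. By p-value it was at place 13 among the 244 genes that fell, and by fold change at place 30. Many of the larger falls belong to weaker genes: of the 8663 genes at or above its mean count, 6 had a lower fold change, which puts Dppa3 at place 7. Dppa3 is expressed unevenly from cell to cell in serum cultures, and in these bulk samples fewer cells with the RNA and less RNA per cell cannot be told apart. GENCODE lists a processed pseudogene, Dppa3-ps, on the X chromosome; the handling of reads with several matches was not stated.

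Dppa4 and Dppa2, which stand in a row on chromosome 16 (48283733 to 48294237 and 48303908 to 48319723, both forward, starts 20.2 kb apart), had values of opposite sign, neither of which passed. In the authors' deposited table Dppa4 had -0.43 ± 0.32 (SE), adjusted p = 0.565, and Dppa2 0.19 ± 0.39, adjusted p = 0.890 (DESeq2). Their 95% intervals, -1.06 to 0.19 for Dppa4 and -0.58 to 0.95 for Dppa2, overlap, so the difference in sign is within the error of both. A change of 1.91-fold in Dppa4 or 2.22-fold in Dppa2 would have been needed for a call. Changes beyond a 2.08-fold fall in Dppa4 lie outside its interval, as do falls of Dppa2 beyond 1.49-fold and rises beyond 1.94-fold.

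Dppa5a (chromosome 9, 78367052 to 78368177, reverse strand), the most abundant of the 6, had -0.60 ± 0.35 (SE) with adjusted p = 0.413 by the authors' deposited table (DESeq2). The 95% interval, -1.29 to 0.09, reaches from a 2.44-fold lower level to a 1.06-fold higher one. Of its annotated unprocessed pseudogenes, Dppa5b and Dppa5c, the table lists Dppa5c, at a mean of only 9.81 normalized counts and -0.11 ± 1.02 in the authors' deposited table. Reads shared by these copies may have been split or dropped in the counting.

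Tcl1 (chromosome 12, 105216750 to 105222793, reverse strand) came nearest to the threshold after Dppa3. The authors' deposited table gives it -0.76 ± 0.30 (SE) with a p of 0.0120 before and 0.124 after adjustment (DESeq2), and its 95% interval of -1.35 to -0.17 lies below 0. The implied level was 40.9% lower in Dot1l KO. Utf1 (chromosome 7, 139943789 to 139945112, forward strand) had nearly the same fold change with a wider error, -0.76 ± 0.44 with adjusted p = 0.407 by the authors' deposited table. Its standard error was above that of 94.1% of the genes of similar mean count, whose median error was 0.30, and only a 2.47-fold change would have been called, against 1.85-fold for Tcl1.

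RefSeq (GRCm38.p6) gave promoter windows for 2 of the 6 genes, Tcl1 and Utf1, and both are shown. Each window runs from 250 bases before the RefSeq start to 50 bases after it, 5′ to 3′ on the strand of the gene; capitals mark the GC box GGGCGG or its complement CCGCCC.
Tcl1, chr12:105222688-105222987, reverse strand: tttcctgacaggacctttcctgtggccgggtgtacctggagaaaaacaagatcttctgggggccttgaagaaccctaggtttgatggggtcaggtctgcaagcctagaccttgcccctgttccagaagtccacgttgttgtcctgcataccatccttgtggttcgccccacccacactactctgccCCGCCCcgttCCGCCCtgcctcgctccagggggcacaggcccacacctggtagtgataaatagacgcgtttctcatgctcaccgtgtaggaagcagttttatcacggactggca
Utf1, chr7:139943606-139943905, forward strand: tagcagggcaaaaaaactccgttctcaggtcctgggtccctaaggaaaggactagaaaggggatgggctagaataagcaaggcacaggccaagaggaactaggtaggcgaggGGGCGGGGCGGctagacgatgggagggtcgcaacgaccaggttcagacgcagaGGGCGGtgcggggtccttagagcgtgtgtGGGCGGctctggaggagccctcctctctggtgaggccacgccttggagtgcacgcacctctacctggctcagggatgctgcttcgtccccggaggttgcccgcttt
Both windows hold the GC box, which binds factors of the Sp and Klf families, and 35.7% of all 32851 windows of this length hold it on either strand. In the Utf1 window it occurs 4 times, beginning at -138, -133, -85 and -56 from the start, of which the first pair overlaps by a base, and in the Tcl1 window 2 times, at -64 and -54 on the opposite strand. The octamer ATGCAAAT, the Sox motif CATTGT, the E-box CACGTG, the CCAAT box CCAAT and the TATA box TATAAA, searched on both strands, did not occur in either window; over all windows their shares were 1.74%, 12.6%, 7.15%, 37.4% and 13.6%. The GC content was 62.0% with 17 CG dinucleotides in the Utf1 window and 56.7% with 11 in the Tcl1 window, where the medians over all windows were 52.7% and 7. A letter match is a description of these windows and was not set against binding data.

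Set beside genes of similar abundance, the 5 negative values were closer to 0. Genes were divided by mean count into 20 bins of equal size, and the median log2 fold change in the bins that hold the 6 genes was between -0.20 and -0.13. Measured from the median of its own bin, Dppa3 stood at -2.04, Tcl1 at -0.58, Utf1 at -0.57, Dppa5a at -0.40, Dppa4 at -0.26 and Dppa2 at 0.38. Within its bin, Dppa3 was at percentile 0.306 of the fold changes, Tcl1 at 5.21, Utf1 at 5.72, Dppa5a at 12.5, Dppa4 at 20.4 and Dppa2 at 87.4. The 95% interval of Dppa3 does not overlap those of Dppa2, Dppa4, Dppa5a and Tcl1, but it overlaps that of Utf1, -1.64 to 0.11. Differences between these genes were not tested, since their values come from the same libraries and the table gives no covariance.

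**Figure D3:**
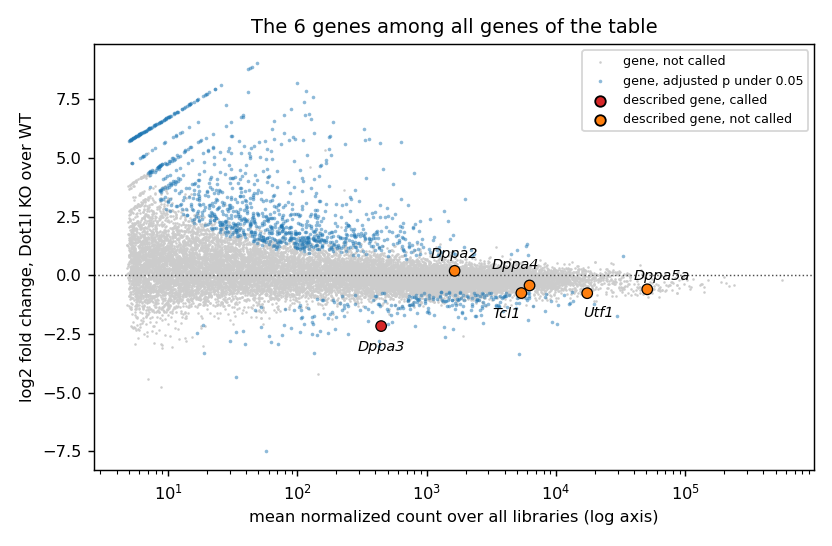
Mean normalized count over all libraries (log axis) against log2 fold change, Dot1l KO over WT, for all genes; called genes are blue, the 6 genes are large points, and straight lines of points at the upper left are genes with few or no WT reads. Dppa3 lies below the cloud at a mean of 444, while the other 5 genes lie within it.

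Among the other reprogramming candidates, members of 1 multicopy cluster rose and the rest did not pass. Of 19 tested candidates besides the 6 genes, 3 rose and 0 fell, against 5.34% and 1.25% of all genes, and the median log2 fold change was -0.08 beside -0.02 over all genes. The 3 rises were Fthl17d, Fthl17f and Fthl17c, ferritin heavy chain-like genes of an X-linked cluster with similar copies, which makes their single values uncertain. In the authors' deposited table Fthl17f was at 5.09 ± 0.77 (SE), adjusted p = 7.68e-09, and Fthl17d at 5.50 ± 0.86, adjusted p = 3.98e-08. For Fthl17c, which had an implied WT level of no reads, the rise was 12.9-fold with WT set to a floor of 3 reads over the group. This fold has no error of its own. The adjusted p was 0.00614 by the authors' deposited table (DESeq2).

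Defining markers of embryonic stem cells were abundant, and 0 of the 10 tested passed in either direction by DESeq2. Among all genes 6.58% passed, and 2.97% of those as abundant as Dppa3 or more so. At an unadjusted p under 0.05, 1 marker was higher and 1 lower, where 2078 of 19564 genes were higher and 1085 lower. The means of the 10 markers ran from 5956 to 44589 normalized counts, and their median log2 fold change was -0.09. The smallest p-values belonged to the RNA-binding protein gene Lin28a, at -0.64 ± 0.29 (SE) with adjusted p = 0.226, and the Nodal coreceptor gene Tdgf1, at 0.46 ± 0.23 with adjusted p = 0.284 by the authors' deposited table. A wider list of 28 further stem cell markers had 2 rises (7.14%) and 3 falls (10.7%) with a median of -0.22, where 5.34% of all genes were called higher and 1.25% lower, and 0.982% and 1.99% of those as abundant as Dppa3 or more so. The falls included the secreted phosphoprotein Spp1 at -1.11 ± 0.23 with adjusted p = 0.000133 and the orphan receptor Nr0b1 at -1.13 ± 0.38 with adjusted p = 0.0455 by the authors' deposited table. The rises were the T-box factor Tbx3 at 1.24 ± 0.36, adjusted p = 0.0127, and Tex19.1, a germ cell and placenta protein that restrains transposons, at 1.20 ± 0.39, adjusted p = 0.0372 by the authors' deposited table.

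Dppa3 is a classical marker of primordial germ cells, and genes of that list went both ways. Of 14 tested members 3 rose and 3 fell, or 21.4% each, against 5.34% higher and 1.25% lower among all genes, and the median was -0.39. The falls were the membrane protein Ifitm3 (Fragilis), used with Dppa3 to mark germ cell precursors, at -3.34 ± 0.46 (SE) with adjusted p = 8.63e-11, its relative Ifitm1 at -1.27 ± 0.38 with adjusted p = 0.0199, and the RNA-binding protein Nanos3, which keeps such precursors alive, at -2.53 ± 0.75 with adjusted p = 0.0172 by the authors' deposited table. The rises were later germ cell genes, the RNA-binding protein Dazl at 3.23 ± 0.40 with adjusted p = 4.45e-13 and the helicase Ddx4 at 1.60 ± 0.37 with adjusted p = 0.000606, and the endoderm and germ cell factor Sox17 at 3.19 ± 1.05 with adjusted p = 0.0381 by the authors' deposited table. The specifiers of the germ cell fate did not pass; Prdm1, a zinc finger repressor, had -0.73 ± 0.38 with adjusted p = 0.321 by the authors' deposited table.

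Markers of other cell types moved beside Dppa3. In the primitive endoderm list 8 of 14 tested members rose and 0 fell, where 5.34% of all genes were called higher and 1.25% lower; the median was 2.02, with a summed implied level of 32389 normalized counts in Dot1l KO and 25586 in WT. Among fibroblast markers 5 of 10 tested members rose and 0 fell, against the same shares. The fibroblast median was 0.97, with a summed level of 36527 in Dot1l KO and 50727 in WT. The lists share members: Pdgfra is counted as a rise in both. Sox17 is counted as a rise in the primitive endoderm list and in the primordial germ cell list. Of the 16 listed fibroblast markers 6, among them Dcn, Lum and Postn, were not analysed here. For example, the endocytic adaptor Dab2 was at 2.75 ± 0.43 (SE), adjusted p = 4.08e-08, and the collagen Col1a2 at 4.03 ± 0.76, adjusted p = 1.09e-05 by the authors' deposited table. The other way stood 4 fibroblast markers that did not pass: Fn1 had -0.55 ± 0.34 at a mean of 32973, Vim -0.48 ± 0.25 at 7641, Timp1 -0.67 ± 0.36 at 1205 and Twist1 -0.12 ± 0.37 at 96.8, by the authors' deposited table. The part of these lists in the fall of Dppa3 was not tested.

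Enzymes and partners of DNA methylation, around which Dppa3 acts, included 2 rises (14.3%) and 0 falls among 14 tested genes, against 5.34% higher and 1.25% lower among all genes, with a median of -0.04. Among genes as abundant as Dppa3 or more so, 0.982% were higher and 1.99% lower. Of the 2 rises, Dnmt3a is that abundant, with a mean of 6090 normalized counts, and Tet3, with 183, is not. The de novo methyltransferase Dnmt3a was at 0.85 ± 0.24 (SE) with adjusted p = 0.00822 and the dioxygenase Tet3, from whose activity Dppa3 protects the maternal genome in the zygote, at 1.18 ± 0.34 with adjusted p = 0.0139 by the authors' deposited table. The closest to a call after them was Uhrf2, a relative of Uhrf1, with 0.65 ± 0.33 and adjusted p = 0.311 by the authors' deposited table.

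Genes of the 2-cell program that Dppa2 and Dppa4 help to switch on were higher with the sign taken above, and neither factor passed the test. Of 20 tested genes 16 (80%) were higher and 0 lower, where 5.34% of all genes were called higher and 1.25% lower. Their median was 5.65 on the log2 scale. Setting the 2 genes without WT reads to their bound gave 5.37. Duxf3, the symbol of the Dux gene in this table, was 20.3-fold higher against the floor of 3 WT reads over the group, adjusted p = 0.000216 by the authors' deposited table. The telomere regulator Zscan4f stood at 6.07 ± 0.63 (SE), adjusted p = 9.26e-19 by the authors' deposited table; like most of the list it has near-identical copies. The 4 genes that did not pass were Zscan4b, Zscan4c, Zscan4e and Tcstv1, with values from 3.34 to 5.32 in the authors' deposited table; they are listed here after their values were seen. Among transposable elements, where 0.748% of 936 tested subfamilies were called (0.641% higher and 0.107% lower), MERVL-int was at 1.96 ± 0.38 with adjusted p = 0.000107 and its long terminal repeat MT2_Mm at 1.64 ± 0.41 with adjusted p = 0.00979 by the authors' deposited table. MERVL served to read the sign of the table, so its direction is no finding. The direction of the 2-cell genes rests on the same reading and is no separate finding. Young LINE-1 elements, which Dppa2 and Dppa4 also bind, did not pass: L1Md_A had 0.08 ± 0.57, L1Md_T -0.29 ± 0.53 and L1Md_Gf 0.61 ± 0.44, each with adjusted p = 0.996 by the authors' deposited table. IAPEz-int, an endogenous retrovirus silenced by DNA methylation, had -0.61 ± 0.26 with adjusted p = 0.642 by the authors' deposited table.

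**Figure D4:**
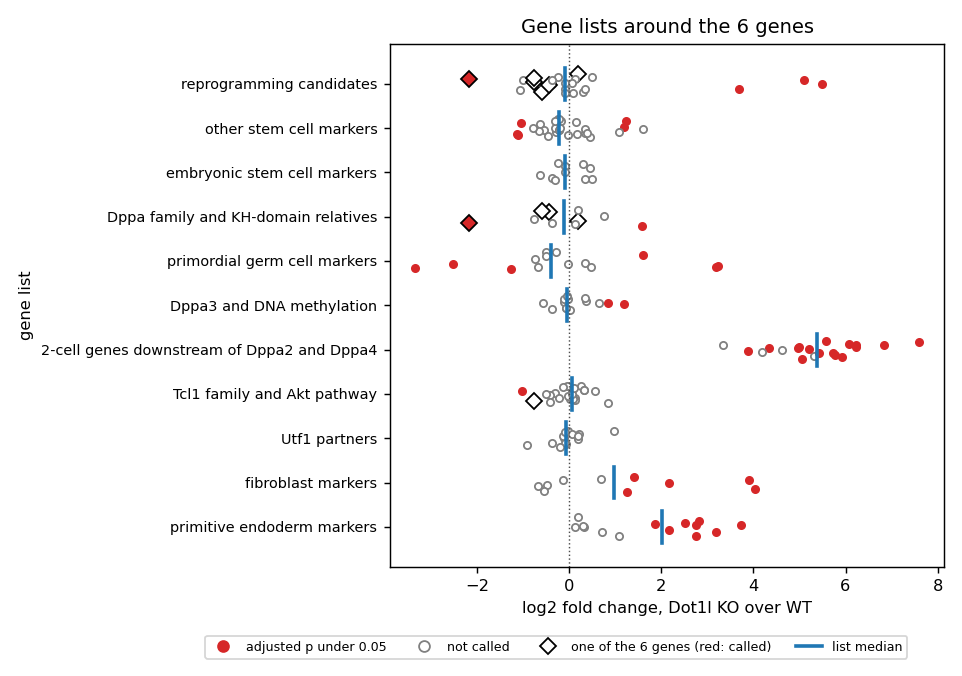
Log2 fold changes, Dot1l KO over WT (horizontal axis), of the genes in 11 lists (rows); red points are called, black diamonds are the 6 genes and blue bars are list medians. Genes without WT reads are drawn at their lower bound; the 2-cell list stands far to the right, with a median of 5.37 so computed.

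The KH-domain relatives of Dppa5a and the maternal proteins they work with had 6 tested members besides the Dppa genes. Of these 1 was higher and 0 lower, against 5.34% higher and 1.25% lower among all genes. The rise was Nlrp4f, an oocyte-type NLR gene, at 1.59 ± 0.29 (SE) with adjusted p = 4.22e-06 by the authors' deposited table. Ooep, the nearest relative by position, had -0.75 ± 0.34 with adjusted p = 0.212 by the authors' deposited table.

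The Akt pathway, on which Tcl1 acts, had 0 rises and 1 fall among 22 tested genes besides Tcl1, with a median of 0.06. That is 4.55% called lower, where 1.25% of all genes were called lower and 5.34% higher. Among genes as abundant as Dppa3 or more so, 1.99% were lower and 0.982% higher. The difference in these shares was not tested. The fall was Akt1 (chromosome 12, 112653821 to 112674884), the kinase that Tcl1 binds, at -1.03 ± 0.30 (SE) with adjusted p = 0.0132 by the authors' deposited table; its implied level was 1122 normalized counts in Dot1l KO and 2288 in WT. The regulatory subunit Pik3r3 had 0.85 ± 0.32 with adjusted p = 0.0978 by the authors' deposited table. The 5 Tcl1b genes beside Tcl1 were not analysed here.

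Among all genes 6.58% were called, and 2.97% of those as abundant as Dppa3 or more so. Of 14 tested partners of Utf1, among them Polycomb subunits, Myc genes and the decapping factor Dcp1a, 0 were called in either direction by DESeq2. At an unadjusted p under 0.05, where 2078 of 19564 genes were higher and 1085 lower, 1 partner was higher and 1 lower. These were the cell cycle inhibitor gene Cdkn2a, whose Arf product Utf1 helps to restrain, at 0.97 ± 0.38 (SE) with adjusted p = 0.123, and the proto-oncogene Mycn at -0.91 ± 0.45 with adjusted p = 0.276 by the authors' deposited table.

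Of the genes in the surroundings of the 6, 7.81% were called, beside 6.58% of all genes. Within 500 kb of their starts lie 64 other tested genes, with a median of 0.07. Of these 2 were higher, or 3.12% against 5.34% of all genes, and 3 lower, or 4.69% against 1.25%; the difference in these shares was not tested. Near Dppa3, 1 of 17 neighbours was called, the microfibril protein Mfap5, 121 kb upstream, which was at 1.81 ± 0.34 (SE) with adjusted p = 9.77e-06 by the authors' deposited table. The pluripotency genes of the same cluster did not pass: Gdf3, 16.3 kb upstream, had -1.07 ± 0.46 with adjusted p = 0.167 and Nanog, 81.1 kb downstream, 0.30 ± 0.26 with adjusted p = 0.653 by the authors' deposited table. The nearest tested entry downstream was the pseudogene Gm10420, 69.6 kb away, at -0.38 ± 0.54 in the authors' deposited table.

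Downstream of Dppa4 and Dppa2 the nearest tested gene was Morc1, a germ cell silencing factor, 127 kb from Dppa2, with 0.16 ± 0.33 (SE) and adjusted p = 0.884 by the authors' deposited table. Around Dppa5a, the DNA sensor Cgas, 75.1 kb upstream, was at 1.49 ± 0.39 with adjusted p = 0.00416 and the glutathione transferase Gsta4, 185 kb downstream, at -1.19 ± 0.38 with adjusted p = 0.0282 by the authors' deposited table. Of the 13 neighbours of Tcl1 0 were called by DESeq2, where 6.58% of all genes were. Also, 0 had an unadjusted p under 0.05, where 2078 of 19564 genes were higher and 1085 lower. The nearest, the neural gene Tunar (111 kb upstream) and the glutaredoxin gene Glrx5 (190.1 kb downstream), had 0.46 ± 0.41 and -0.41 ± 0.42 in the authors' deposited table. Near Utf1, 2 of 15 neighbours fell, the homeobox gene Nkx6-2, 361 kb upstream, at -1.75 ± 0.50 with adjusted p = 0.0117, and Echs1, a mitochondrial enzyme of fatty acid breakdown, 173 kb downstream, at -0.76 ± 0.24 with adjusted p = 0.0282 by the authors' deposited table. The genes closest to Utf1, Kndc1 (49.1 kb upstream) and Gm16201 (6.61 kb downstream), had 0.06 ± 0.31 and 0.75 ± 0.83 in the authors' deposited table.

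**Figure D5:**
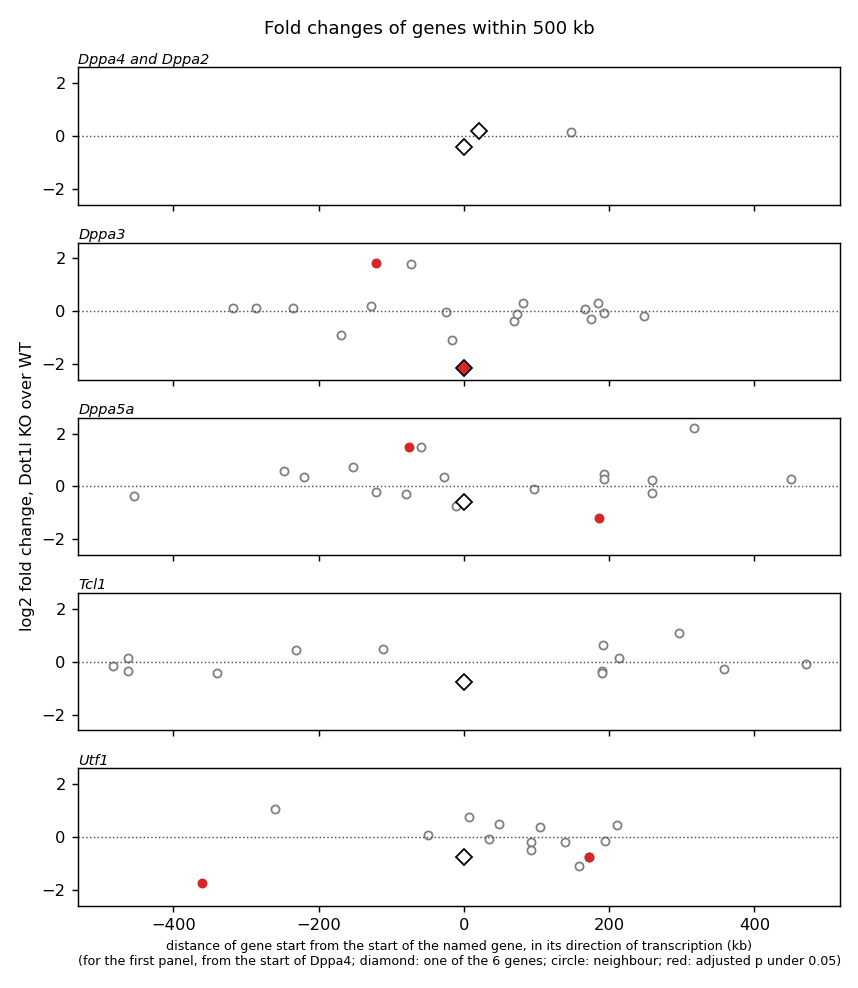
Log2 fold change, Dot1l KO over WT, of genes within 500 kb against the distance in kb of their start from that of the named gene, along its direction of transcription; diamonds are the 6 genes, circles are neighbours and red marks called genes. Besides Dppa3, 5 red points are seen, Mfap5, Cgas, Gsta4, Nkx6-2 and Echs1.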

How the data were processed

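RNA levels were compared between 3 Dot1l KO and 3 WT samples of E14 cells. Per the submitters' processing notes, the authors used HISAT2 2.1.0, featureCounts 2.0.0 and DESeq2 with the mm10 build; the DESeq2 version, its formula, the strand setting and the treatment of multiply mapped reads are not stated there. Per the file headers, the deposited mean signal is the average over libraries of counts divided by size factors. Per the file headers, effects were deposited as log2 fold changes beside their standard errors. The deposited score is the Wald statistic, checked to equal the fold change over its error. The deposited p-value is the Wald p with its Benjamini-Hochberg adjustment, which recomputation over the 19564 genes with a p returned. The table has 7 genes without a p. A planned test on counts of single samples could not be run, as the tables hold none, and the planned fallback applied, the authors' own test at an adjusted p under 0.05.

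From these values 95% Wald intervals, implied group means under equal group sizes, medians within 20 bins of mean count and the change needed for a call (2.94 standard errors, from the largest p called, 0.00329) were computed in Python 3.11.15 with scipy 1.17.1. An implied WT level under 0.25 was taken as no reads, with a floor of 3 reads over the group, or 1 normalized count per library. Exon lengths and coordinates are GENCODE M21 (GRCm38); every one of the 19571 symbols was found, and for 39 with several loci the first was used. The table of single transposable element copies was not used, since its names give no position. The recomputed adjustment and centring were tested on simulated data.

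The 6 genes and all lists were chosen with earlier results of these data known. Genes named are the 6, up to 6 list members past the threshold by p and the lowest p-values of each list, and neighbours past the threshold or nearest on each side; Nanog, Prdm1, Uhrf2, Fn1, Vim, Timp1 and Twist1 were named after their values were seen. Some list members are not reported here. No likeness of pattern was computed, since there is 1 fold change per gene. Alternatives were Bonferroni adjustment, a threshold of 0.01, a minimum absolute log2 fold change of 1, a minimum mean count of 50, centring on all genes or within bins, and scaled Wald statistics.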

Additional observations from a re-analysis of the deposited data

How the results depend on the processing

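Under the 7 alternatives that could be run, 1 of the 6 genes was called lower, Dppa3, and 0 were called higher; its log2 fold change ranged from -2.17 to -2.04 and its adjusted p from 1.86e-06 to 0.00176. The sign of each of the other 5 genes was kept under these alternatives and each stayed uncalled, with adjusted p of at least 0.124 for Tcl1, 0.407 for Utf1, 0.413 for Dppa5a, 0.565 for Dppa4 and 0.781 for Dppa2. The counts over all genes, 1044 higher and 244 lower, moved more. They were 661 and 106 at a threshold of 0.01, 405 and 50 with scaled Wald statistics, and 275 and 34 with Bonferroni adjustment. Keeping genes with means from 50 upward left 517 higher, and rises made up 70.1% of the calls against 81.1%. With centring within bins 159 were lower. The cause of either shift was not tested. No paired analysis was possible because the tables hold no values per sample, and for the same reason leaving out each replicate was not run. At the errors of the 5 uncalled genes, changes under 1.85-fold (Tcl1) to 2.47-fold (Utf1) could not be called; library depth is unknown, so its part in these errors was not tested.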

Other observations

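Morula and blastocyst genes, which cells of the 2-cell-like state can share, were a further list of 9 tested genes, Morc1 and Zfp42 among them. It had 2 rises and 0 falls, against 5.34% higher and 1.25% lower among all genes, and a median log2 fold change of 0.79. The trophoblast factor Elf5 was 29.1-fold higher against the floor of 3 WT reads over the group, adjusted p = 8.97e-05 (DESeq2), in the authors' deposited table. The keratin Krt8 stood at 0.99 ± 0.29 (SE) with adjusted p = 0.0165 and its partner Krt18 at 0.79 ± 0.34 with adjusted p = 0.184 by the authors' deposited table. Cdx2, the trophectoderm regulator, had 0.86 ± 0.81 with adjusted p = 0.690 by the authors' deposited table at a mean of 15.3 normalized counts, and was chosen after its value was seen.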
